A study of Mus musculus with 11 samples.

Results

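A set of 1208 mouse genes carried both acetylation and trimethylation of lysine 27 of histone H3 at their promoters in endocrine cells of the pancreas. A gene was a member if at least 1 H3K27ac region annotated to its promoter was listed, together with at least 1 promoter region of H3K27me3 narrower than 5000 bp. Where a gene had several such regions, the one with the highest mean count stood for it. The members were 7.51% of the 16090 genes with a promoter region of either mark. They made up 9.61% of the 12575 genes with an H3K27ac promoter region and 29.9% of the 4037 genes with a narrow H3K27me3 promoter region. Both marks were measured at postnatal day 9 by CUT&Tag, which reads where a protein or mark sits from the DNA that an antibody-guided transposase tags around it. The cells were Isl1CKO (Isl1loxP/loxP;Neurod1-cre) and Control (Isl1loxP/+;Neurod1-cre) endocrine cells, with 2 libraries for each genotype and mark. Each library held about 20000 sorted cells from a pool of 3 to 4 pancreases of littermates of both sexes. Both genotypes carried the Neurod1-cre transgene and the Ai14 tdTomato reporter on a C57BL/6 background, and the sort was for tdTomato, so only cells with a history of Neurod1-driven Cre were collected. The Control cells were heterozygous for the floxed Isl1 allele. ISL1 binding itself was profiled in Control cells at the embryonic stage E14.5 (2 libraries, 1 joint column) and at P9 (1 library).

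H3K27ac is placed by the acetyltransferases p300 and CBP and marks active promoters and enhancers, whereas H3K27me3 is placed by Polycomb repressive complex 2 and marks silenced genes. A single lysine cannot carry both groups. Promoters with active and Polycomb marks together are best known at developmental genes, and in islets H3K27me3 holds progenitor and non-endocrine genes silent. Isl1 encodes a LIM-homeodomain transcription factor of endocrine progenitors and islet cells. In pooled cells, both marks on the same molecules and each mark in different cells of the pool cannot be told apart, and neither can fewer marked cells and less mark per cell.

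Polycomb marking is known to favour promoters rich in CG dinucleotides, and 6 members that the results turn on are shown for that reason. They are Glp1r (receptor of the incretin GLP-1), Pdx1 (homeodomain factor of beta cells), Chrd (chordin, a secreted BMP antagonist), Egr4 (an immediate early zinc finger factor), Cbs (cystathionine beta-synthase) and A4galt (a galactosyltransferase of glycolipid synthesis). Each line gives the 250 bases before the RefSeq transcription start on GRCm38.p6, 5′ to 3′ along the gene, with CG in capitals.
Glp1r: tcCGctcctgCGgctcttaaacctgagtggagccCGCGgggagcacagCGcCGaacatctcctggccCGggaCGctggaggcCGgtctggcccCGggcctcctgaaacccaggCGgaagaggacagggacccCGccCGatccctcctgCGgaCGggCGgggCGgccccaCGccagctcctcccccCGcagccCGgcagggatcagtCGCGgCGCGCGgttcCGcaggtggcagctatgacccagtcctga
Pdx1: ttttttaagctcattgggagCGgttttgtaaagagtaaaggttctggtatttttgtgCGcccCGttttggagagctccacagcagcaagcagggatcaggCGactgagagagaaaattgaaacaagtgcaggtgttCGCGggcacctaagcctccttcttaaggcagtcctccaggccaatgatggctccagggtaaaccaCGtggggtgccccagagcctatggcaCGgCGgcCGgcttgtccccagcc
Chrd: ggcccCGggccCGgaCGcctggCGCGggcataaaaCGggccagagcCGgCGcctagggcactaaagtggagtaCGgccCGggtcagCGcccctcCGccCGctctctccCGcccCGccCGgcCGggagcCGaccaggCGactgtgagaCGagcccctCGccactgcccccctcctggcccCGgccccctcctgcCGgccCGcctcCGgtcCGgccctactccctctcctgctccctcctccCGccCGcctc
Egr4: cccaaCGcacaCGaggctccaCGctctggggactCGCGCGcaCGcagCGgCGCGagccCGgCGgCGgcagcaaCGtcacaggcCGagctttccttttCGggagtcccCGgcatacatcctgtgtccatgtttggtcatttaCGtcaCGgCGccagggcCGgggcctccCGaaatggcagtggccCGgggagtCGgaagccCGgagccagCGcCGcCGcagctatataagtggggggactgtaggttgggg
Cbs: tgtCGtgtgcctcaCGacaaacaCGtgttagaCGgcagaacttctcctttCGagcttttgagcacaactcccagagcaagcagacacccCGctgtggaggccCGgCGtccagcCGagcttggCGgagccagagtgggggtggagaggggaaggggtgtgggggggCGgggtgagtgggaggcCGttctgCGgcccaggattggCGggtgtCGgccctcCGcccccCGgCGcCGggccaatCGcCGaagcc
A4galt: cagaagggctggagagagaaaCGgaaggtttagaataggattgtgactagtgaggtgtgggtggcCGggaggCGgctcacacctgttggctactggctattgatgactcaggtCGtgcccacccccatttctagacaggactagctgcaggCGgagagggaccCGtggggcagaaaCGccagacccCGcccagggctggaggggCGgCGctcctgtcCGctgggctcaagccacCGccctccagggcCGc
The intervals were chr17:30901617-30901866, plus strand, for Glp1r and chr5:147269847-147270096, plus strand, for Pdx1. They were chr16:20732877-20733126, plus strand, for Chrd and chr6:85513590-85513839, minus strand, for Egr4. They were chr17:31637206-31637455, minus strand, for Cbs and chr15:83251730-83251979, minus strand, for A4galt. Chrd and Egr4 held 28 CG dinucleotides each, a number that 7.61% of all 32851 RefSeq promoters reached. Glp1r held 26 (reached by 9.59%), Cbs 21 (16.3%), A4galt 13 (31.5%) and Pdx1 10 (37.8%), beside a median of 6 over all promoters. The letters TAAT, the core that homeodomain factors are known to bind, were in none of the 6 windows on either strand and in 54.9% of all promoters. Only 811 of the 1208 members (67.1%) had a promoter in the RefSeq table, so no CG count over the members was made. The regions described below are on GRCm39 and were not laid over these intervals.

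Depth in regions was between 681047 and 1441926 counts in the Isl1CKO H3K27ac libraries and between 1307049 and 1815511 in the Control ones. The H3K27me3 libraries held 2260039 and 2276887 counts in Isl1CKO cells and 1202276 and 1750706 in Control cells. H3K27ac Control replicate 2 stood apart: its correlation with the other 3 libraries over all regions, on log2(CPM + 1), was between 0.451 and 0.497, while those 3 correlated at 0.680 to 0.722 with each other. More than 70% of the scaled H3K27ac signal lay in this library alone at 49 members (4.06%) and at 3.69% of all regions. For each other library this held at 0 or 1 members and at 0.108% of all regions or fewer. Of 20 endocrine markers 15 had an H3K27ac promoter region, among them Ins1, Chga, Neurod1 and Pax6, with summed levels of 1032 to 1063 CPM in Isl1CKO cells and 966 to 1227 CPM in Control cells. Of the other cell types, 1 of 15 acinar, 6 of 10 ductal, 1 of 10 endothelial, 0 of 10 mesenchymal, 2 of 10 immune and 2 of 8 glial markers had one. The summed levels were 69.99 to 112 CPM in Isl1CKO cells and 52.6 to 86.5 CPM in Control cells for the acinar list, 320 to 341 and 354 to 359 CPM for the ductal list, and 73.0 to 75.2 and 58.7 to 64.7 CPM for the glial list. The endothelial list, through Esam alone, reached 56.9 to 68.5 CPM in Isl1CKO cells and 17.0 to 40.9 CPM in Control cells, and the immune list 39.6 to 45.7 and 19.2 to 34.7 CPM. Cdh5, Pecam1, Ptprc, Spi1, Col1a1 and Ptf1a, which define those cells, were among the markers without an H3K27ac promoter region. So were Gcg, Iapp, Ins2, Scg2 and Sst of the endocrine list, and a missing region therefore does not show that a cell type was absent. The H3K27ac region at the promoter of Isl1 itself measured 45.6 and 45.7 CPM in Isl1CKO cells and 63.3 and 42.8 CPM in Control cells. Esam and Coro1a (an immune marker) were members, and the part of other cell types in the results was not tested. A mark at a promoter does not read whether the gene was deleted.

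The 2 regions of a member usually lay on each other. They overlapped by at least 1 bp at 899 members (74.4%), and the H3K27ac region lay wholly inside the H3K27me3 region at 468. The reverse held at 77 members. Median widths were 1038 bp for H3K27ac and 1960 bp for H3K27me3. Both regions covered the annotated transcription start at 485 members. At the 309 members without overlap the regions were apart, with a median gap of 1164 bp and a largest gap of 4584 bp. Kdelr1, the receptor that returns escaped proteins to the endoplasmic reticulum, was 1 of these 309, with its H3K27ac region at chr7:45522048-45524032 and its H3K27me3 region at chr7:45517283-45521800. A further, wide H3K27me3 region was annotated to the promoter of 49 members. Of the 1087 members with a RefSeq entry, 976 (89.8%) were protein coding, against 65.5% of the genes with narrow H3K27me3 and no H3K27ac. The shares were 93.4% for H3K27ac with wide H3K27me3, 85.6% for H3K27ac alone and 82.0% for wide H3K27me3 alone.

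Both marks were weak at the members relative to the promoters where each was strongest. The median H3K27ac level per kb of region was 18.9 and 20.4 CPM in the Isl1CKO libraries and 19.9 and 23.3 CPM in the Control libraries. At the 11143 promoters with H3K27ac and no H3K27me3 region it was 30.8 and 29.6 CPM in Isl1CKO cells and 30.6 and 27.1 CPM in Control cells. The members lay below these in each of the 4 libraries, by a ratio of 0.613 to 0.862. At the 224 promoters with H3K27ac and wide H3K27me3 the median was 14.54 and 15.7 CPM in Isl1CKO cells and 18.1 and 23.8 CPM in Control cells. The members lay above that class in both Isl1CKO libraries and in Control replicate 1, and below it in Control replicate 2. A low H3K27ac level was therefore not particular to the members. The median H3K27me3 level per kb at the members was 13 CPM in both Isl1CKO libraries, and 17.0 and 13.8 CPM in the Control libraries. At the 1119 promoters with a wide H3K27me3 region (5000 bp or more) it was between 38.0 and 43.5 CPM. The members stood at 0.318 to 0.401 of the wide promoters by library. Of the 2829 narrow H3K27me3 promoters without H3K27ac, those of genes that also had a wide region were left out of the next comparison. Against the rest the ratio was 0.869 and 0.886 in Isl1CKO cells and 1.23 and 0.9504 in Control cells. The 4 libraries therefore fell on both sides of 1.

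**Figure D1:**
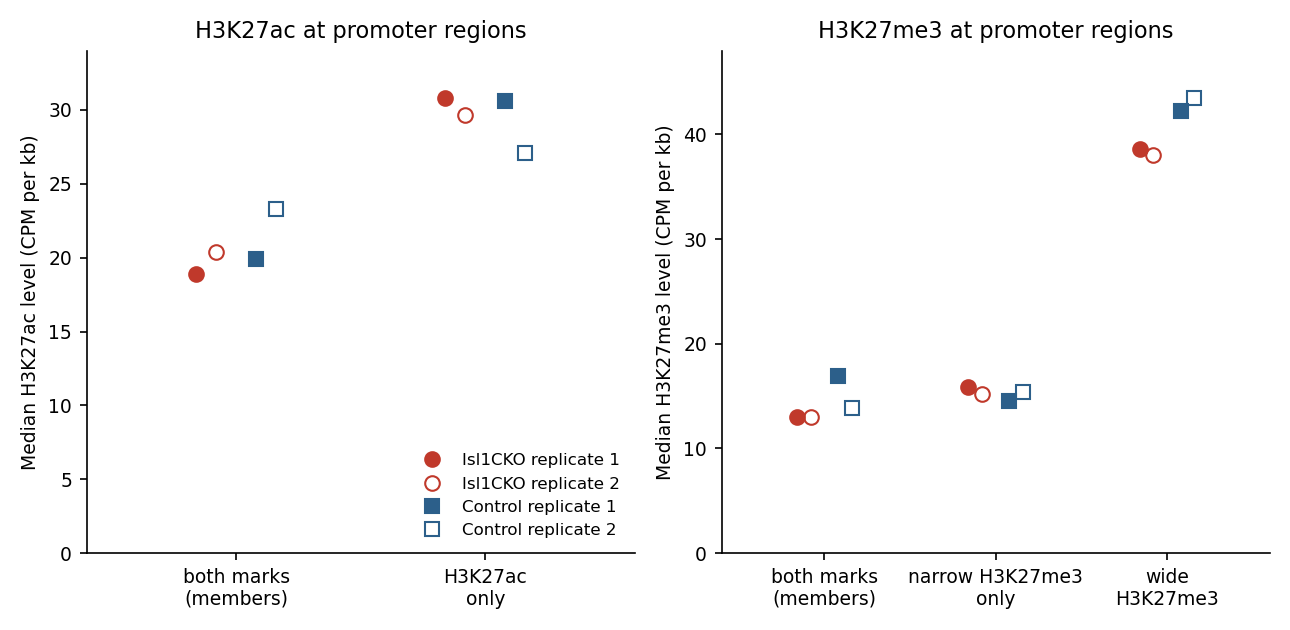
Median level per kb of region (CPM per kb, vertical axis) of H3K27ac (left) and H3K27me3 (right) in each library, for the members and for promoters of other classes. Circles are Isl1CKO and squares Control, filled for replicate 1 and open for replicate 2. Promoters with H3K27ac and wide H3K27me3 are not drawn on the left. The H3K27ac medians of the members (18.9 to 23.3 CPM per kb) lie under those of promoters with H3K27ac alone (27.1 to 30.8), and their H3K27me3 medians (13 to 17.0) under those of wide H3K27me3 promoters (38.0 to 43.5).

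The members with the most of both marks, ranked by the geometric mean of their 2 levels, were Kdelr1, Egr4, Glp1r, Kcnj11, Nxph1, Mmp23, Chrd and Cd248. Kdelr1 had 123 and 160 CPM of H3K27ac in Isl1CKO cells and 129 and 177 CPM in Control cells, beside 179 and 190 CPM of H3K27me3 in Isl1CKO cells and 284 and 165 CPM in Control cells. The genotypes overlapped in both marks. Nxph1, which encodes a neurexin ligand, had 85.2 and 91.4 CPM of H3K27ac in Isl1CKO cells and 40.9 and 101 CPM in Control cells, and its H3K27me3 lay between 112 and 153 CPM in all 4 libraries. Cd248, the gene of endosialin, a surface protein known from pericytes and fibroblasts, had 66.9 and 82.2 CPM of H3K27ac in Isl1CKO cells and 67.2 and 60.3 CPM in Control cells. Its H3K27me3 was lower in both Isl1CKO libraries (89.3 and 96.1 CPM) than in the Control ones (174.5 and 120 CPM). Mmp23, a membrane metalloproteinase gene, showed the same order for H3K27me3, with 45.7 and 52.7 CPM in Isl1CKO cells and 123 and 106 CPM in Control cells (log2 fold change -1.22, SE 0.38). DESeq2 called this difference and edgeR did not (adjusted p = 1). Chrd was below Control in both marks, with 71.5 and 59.7 CPM of H3K27ac in Isl1CKO cells and 78.0 and 107 CPM in Control cells. Its H3K27me3 was 82.5 and 99.9 CPM in Isl1CKO cells and 155.1 and 106 CPM in Control cells.

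No member passed the test between genotypes in either mark. H3K27ac was tested at 1161 members and H3K27me3 at 1194, the other 47 and 14 having too few counts, and edgeR's quasi-likelihood test called 0 of them at an adjusted p below 0.05. Over all regions it called 0% of 30036 H3K27ac regions and 0% of 19434 H3K27me3 regions. An unadjusted p below 0.05 was reached at 100 members for H3K27ac, of which 34 were higher and 66 lower in Isl1CKO cells (5.83% of all regions reached it, 2.71% higher and 3.12% lower). It was reached at 81 members for H3K27me3, of which 3 were higher and 78 lower (4.34% of all regions, 1.35% higher and 2.98% lower). DESeq2 called 1 member for H3K27ac (Cbs, lower; background 0.0899%, and 0.0266% lower) and 19 for H3K27me3, of which 18 were lower in Isl1CKO cells (background 0.731%, and 0.71% lower). DESeq2 gave no adjusted p at 71 of the members tested for H3K27ac and at 891 of those tested for H3K27me3. The authors' deposited table called 449 members for H3K27ac, of which 316 were higher in Isl1CKO cells (27.8% of all regions were higher and 9.25% lower in it). For H3K27me3 the authors' deposited table called 616 members, 32 of them higher and 584 lower (9.17% and 29.6% of all regions). Without Control replicate 1, edgeR called 94 of 1207 members for H3K27ac (7.79%; background 6.96% of all regions in that fit) and 2 for H3K27me3 (0.166%; background 0.0498%). Without Control replicate 2 it called 2 for H3K27ac (0.175%; background 0.0505%). Each library was 1 pool, so p-values measure the spread between 2 pools per genotype.

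At Abcc8, Kcnj11 and Glp1r H3K27ac was lower in both Isl1CKO libraries than in either Control library, and none of the 3 passed edgeR's test. Abcc8, which encodes the sulfonylurea receptor subunit of the ATP-sensitive potassium channel, had 25.9 and 28.1 CPM in Isl1CKO cells and 96.5 and 86.6 CPM in Control cells in its region at chr7:45825372-45828319. The replicates of each genotype were close (log2 fold change -1.75, SE 0.45, edgeR adjusted p = 0.84). Abcc8 was named from members whose genotypes did not overlap, so their separation was fixed by that choice. Kcnj11, the gene of that channel's pore subunit Kir6.2, had 89.8 and 96.3 CPM in Isl1CKO cells and 188 and 154 CPM in Control cells in its region at chr7:45746100-45750616 (log2 fold change -0.88, SE 0.32, edgeR adjusted p = 0.85). Glp1r had 65.4 and 31.6 CPM in Isl1CKO cells and 89.5 and 130 CPM in Control cells in its region at chr17:31119886-31123517 (log2 fold change -1.22, SE 0.44, edgeR adjusted p = 0.85). Their H3K27me3 overlapped between genotypes. Abcc8 had 30.8 and 53.1 CPM of it in Isl1CKO cells and 44.1 and 0.587 CPM in Control cells. Kcnj11 had 60.7 and 106 CPM in Isl1CKO cells and 151.6 and 1.76 CPM in Control cells. Without Control replicate 1, edgeR called H3K27ac at Abcc8 and Glp1r. For H3K27me3 of Abcc8 and Kcnj11, Control replicate 2 was nearly without H3K27me3 while Control replicate 1 was not. Glp1r had 160 and 146 CPM in Isl1CKO cells and 172 and 72.8 CPM in Control cells.

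The other members with the smallest p for lower H3K27ac were Cbs, Lrrc34 and Gm49566. Cbs, whose enzyme starts the transsulfuration of homocysteine, had 25.9 and 21.1 CPM in Isl1CKO cells and 57.1 and 161 CPM in Control cells (log2 fold change -2.23, SE 0.53, edgeR adjusted p = 0.84; -1.30 without Control replicate 2). Lrrc34 had 1.52 and 3.51 CPM in Isl1CKO cells and 20.1 and 44.4 CPM in Control cells (log2 fold change -3.52, SE 0.95, edgeR adjusted p = 0.84; -2.84 without Control replicate 2 and -4.31 without Isl1CKO replicate 2). Gm49566 had no count in either Isl1CKO library and 10.0 and 28.5 CPM in Control cells, which is at least 14.45-fold lower with 3 counts over the genotype as the floor. Egr4, one of the members with the most of both marks, was of the same kind, with 7.61 and 10.5 CPM of H3K27ac in Isl1CKO cells and 37.1 and 64.7 CPM in Control cells (log2 fold change -2.45, SE 0.67, edgeR adjusted p = 0.84). At Cbs, Lrrc34, Gm49566 and Egr4 the higher Control value came from replicate 2, the library that stood apart, and edgeR called Cbs, Lrrc34 and Egr4 without Control replicate 1.

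Members with the smallest p for higher H3K27ac were A4galt, Col26a1, P2ry2 and Fscn1. A4galt had 69.99 and 63.3 CPM in Isl1CKO cells and 23.2 and 4.39 CPM in Control cells (log2 fold change 2.31, SE 0.68, edgeR adjusted p = 0.85; 3.94 without Control replicate 1 and 1.51 without Control replicate 2). Col26a1, a collagen gene, had 88.2 and 66.8 CPM in Isl1CKO cells and 10.0 and 32.3 CPM in Control cells (log2 fold change 1.83, SE 0.57; 2.92 without Control replicate 2). P2ry2, the gene of a receptor for extracellular ATP and UTP, had 60.9 and 38.0 CPM in Isl1CKO cells and 17.0 and 6.03 CPM in Control cells (log2 fold change 2.11, SE 0.69; 3.04 without Control replicate 1 and 1.51 without Control replicate 2). All 4 genes of this paragraph were picked from members whose genotypes did not overlap, so their separation followed from that choice. Fscn1, the gene of the actin bundler fascin, had 25.9 and 36.5 CPM in Isl1CKO cells and 4.63 and 6.58 CPM in Control cells (log2 fold change 2.46, SE 0.81). Adjusted p-values of Col26a1, P2ry2 and Fscn1 from edgeR were 0.85 each. Col26a1 alone of the 4 had an adjusted p below 0.05 in edgeR without Control replicate 2, and A4galt and P2ry2 had one without Control replicate 1.

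The log2 fold change of H3K27me3 was negative at 794 of the 1194 members tested, none of which passed edgeR's test. It was negative at 9240 of all 19434 regions and at 3793 of all 6476 promoter regions tested. At promoters with a wide H3K27me3 region it was negative at 874 of 1119 (median -0.18), so a lower level was not particular to the members. The 2 Isl1CKO libraries were both lower than either Control library at 342 members and both higher at 85 (background 16.7% of all regions below and 18.7% above). As shares of the members tested these were 28.6% and 7.12%. Over all promoter regions of the mark the shares were 24.2% below and 12.7% above. With libraries scaled to total counts the split of the members was 271 below and 117 above. The median log2 fold change was -0.26 over the members, -0.11 over all promoter regions and 0.05 over all regions. Scaling to total counts moved the median of all regions to 0.16 and that of the members to -0.15, which leaves the distance between them as it was. Without Control replicate 1 the median of the members was -0.049, and without Control replicate 2 it was -0.44. No test of the members as a set was made.

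The H3K27me3 medians differed by how the 2 regions lay, a difference that was not tested. Among members with overlapping regions, 282 of 893 (31.6%) were lower without overlap of the genotypes, and the median was -0.32. Among those with regions apart it was 60 of 301 (19.9%) and the median was -0.11. The background was 16.7% of all regions and 24.2% of all promoter regions. Without Control replicate 1 the medians were -0.049 and -0.030. By width of the H3K27me3 region the share below Control was 22.1% under 1000 bp, 24.0% from 1000 bp, 32.9% from 2000 bp and 34.7% from 3000 bp to under 5000 bp. The same background of 16.7% and 24.2% stands beside these shares. Counts grow with width (Spearman's rho of 0.90 between mean CPM and width across members). The medians of these 4 classes were -0.22, -0.23, -0.31 and -0.28.

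For H3K27ac, the Isl1CKO libraries were both lower than either Control library at 288 members (24.8%; background 19.4% of all regions) and both higher at 202 (17.4%; background 18.1%). Over all promoter regions of the mark the shares were 16.7% below and 20.3% above, so the members had a larger share below and a smaller share above than all promoter regions, a difference that was not tested. The median log2 fold change was -0.14 over the members, 0.06 over all promoter regions and -0.03 over all regions. It was negative at 652 of the 1161 members tested. At promoters with H3K27ac and wide H3K27me3 it was negative at 141 of 212 (median -0.35). A lower level was therefore not particular to the members. Without Control replicate 2 the median of the members was -0.03.

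**Figure D2:**
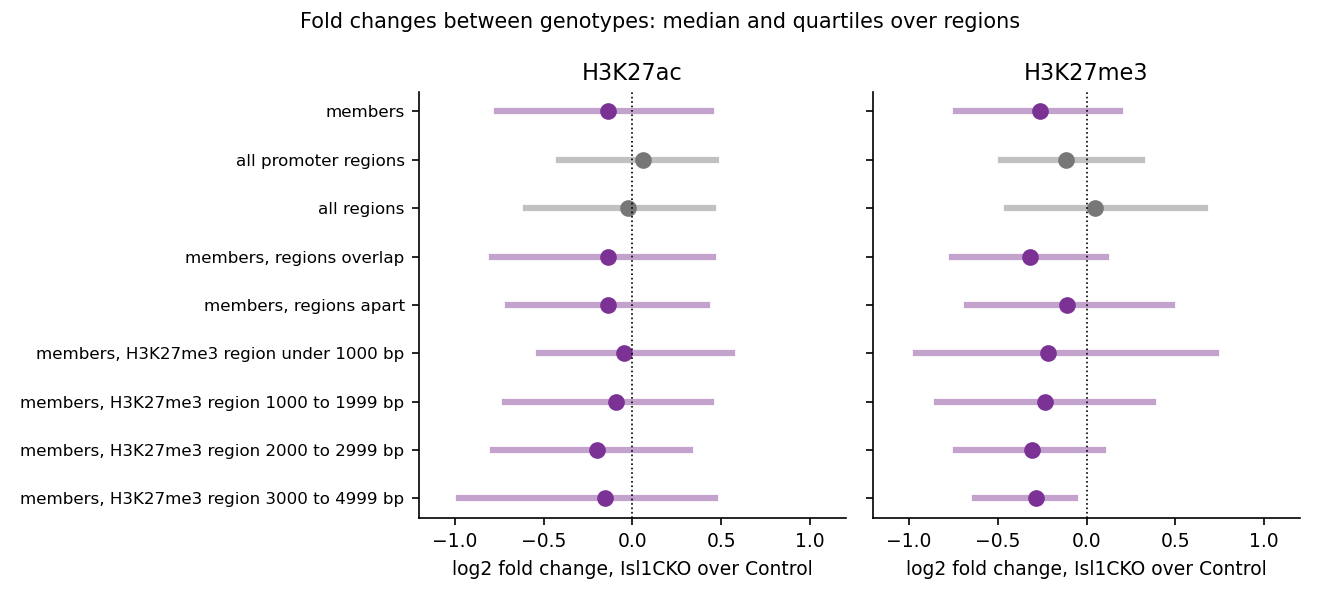
Log2 fold change of Isl1CKO over Control (horizontal axes) for H3K27ac (left) and H3K27me3 (right); points are medians over regions and bars run between the quartiles, in purple for members and grey for all regions or all promoter regions of the mark. The H3K27me3 median of the members (-0.26) lies left of that of all regions (0.05), and that of members whose regions overlap (-0.32) left of that of members whose regions are apart (-0.11).

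The members with the smallest p for lower H3K27me3 were Nfatc1, Bmp2, Arhgap27os1 and Ankrd34a. Nfatc1, the gene of a calcineurin-regulated transcription factor, had 147 and 177 CPM in Isl1CKO cells and 302 and 321 CPM in Control cells in its region at chr18:80754203-80758925. This corresponds to a log2 fold change of -0.94 (SE 0.22, edgeR adjusted p = 0.86). Bmp2, a ligand of the BMP pathway, had 134 and 151 CPM in Isl1CKO cells and 248 and 315 CPM in Control cells at chr2:133393729-133397972 (log2 fold change -0.99, SE 0.24, edgeR adjusted p = 0.93). Its H3K27ac was higher, with 28.9 and 28.1 CPM in Isl1CKO cells and 10.8 and 3.29 CPM in Control cells. Arhgap27os1, an opposite-strand transcript of Arhgap27, had 57.3 and 54.0 CPM of H3K27me3 in Isl1CKO cells and 171 and 122 CPM in Control cells (log2 fold change -1.39, SE 0.35, edgeR adjusted p = 0.97). Its H3K27ac overlapped between genotypes, at 31.7 to 47.1 CPM. Ankrd34a had 155.1 and 148 CPM of H3K27me3 in Isl1CKO cells and 294 and 267 CPM in Control cells (log2 fold change -0.88, SE 0.23, edgeR adjusted p = 1). DESeq2 called these 4 genes.

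Fewer members had more H3K27me3 in Isl1CKO cells, and those with the smallest p were Tmem255b, Il1rl2, Pik3ap1 and Mtx2. Tmem255b had 154 and 188 CPM in Isl1CKO cells and 94.3 and 92.2 CPM in Control cells (log2 fold change 0.87, SE 0.29, edgeR adjusted p = 1) and was the single member that DESeq2 called higher. Il1rl2, the gene of the interleukin 36 receptor, had 159 and 101 CPM in Isl1CKO cells and 74.9 and 59.9 CPM in Control cells. Pik3ap1, the gene of an adaptor of phosphoinositide 3-kinase, had 9.40 and 14.0 CPM in Isl1CKO cells and 0.881 and 0 CPM in Control cells. That is a ratio of 33.3 resting on 1 count in Control cells (95% interval from counting error alone, 5.72 to 1337). Mtx2, which encodes a protein of mitochondrial import, had 19.2 and 8.08 CPM in Isl1CKO cells and 1.76 and 1.18 CPM in Control cells. The last pair of genes rests on low counts.

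**Figure D3:**
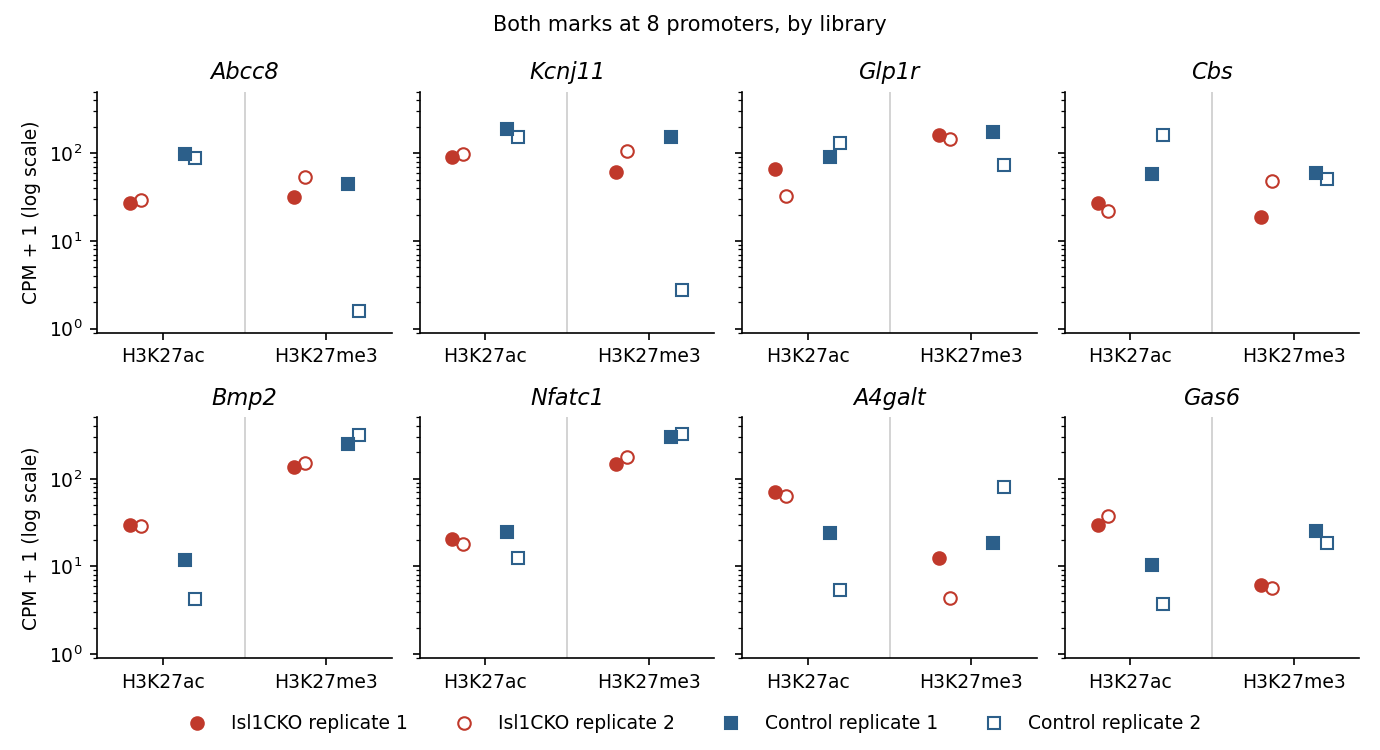
Levels of H3K27ac (left in each panel) and H3K27me3 (right) at 8 members, as CPM + 1 on a log axis, with 1 point per library; red circles are Isl1CKO and blue squares Control, filled for replicate 1 and open for replicate 2. Abcc8, Kcnj11, Glp1r and Cbs have less H3K27ac in Isl1CKO cells, Bmp2 and Nfatc1 less H3K27me3, and A4galt and Gas6 more H3K27ac with less H3K27me3; the open square of Control replicate 2 lies near the floor for H3K27me3 at Abcc8 and Kcnj11.

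Opposite shifts of the 2 marks were found at 87 of the 1149 members tested for both. At 69 members H3K27ac lay above Control and H3K27me3 below it, without overlap of the genotypes in either mark (6.01%; background 6.02% of 1361 genes with promoter regions of both marks). At 18 members H3K27ac lay below and H3K27me3 above (1.57%; background 1.25%). Both marks lay below Control at 66 members (background 7.27%) and above it at 10 (background 0.661%). That background includes the members, but each gene enters it with its H3K27me3 promoter region of the highest mean count at any width. A member that also has a wide region can enter with that region, so the 2 sets are not wholly alike. At the 212 genes with H3K27ac and a wide H3K27me3 region, none of them members, the shares were 5.19% with H3K27ac above and H3K27me3 below, 0.943% with the reverse, 14.2% with both below and 0% with both above, beside 5.74% with both below and 0.870% with both above among the members. The differences were not tested. With libraries scaled to total counts, 34 members had H3K27ac below and H3K27me3 above, 57 had the reverse, 49 were below in both marks and 17 above in both.

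Gas6, the ligand of the TAM receptor kinases, had 28.9 and 36.5 CPM of H3K27ac in Isl1CKO cells and 9.26 and 2.74 CPM in Control cells. Its H3K27me3 was 5.13 and 4.68 CPM in Isl1CKO cells and 24.7 and 17.6 CPM in Control cells. Both marks separated the genotypes in opposite directions, which the rule that named the 6 genes of this paragraph required. A4galt did likewise, with 11.5 and 3.40 CPM of H3K27me3 in Isl1CKO cells and 17.6 and 79.3 CPM in Control cells, as did Ube2ql1, a gene of the ubiquitin-conjugating family. Ube2ql1 had 9.13 and 23.2 CPM of H3K27ac in Isl1CKO cells and 3.86 and 4.39 CPM in Control cells. Its H3K27me3 was 10.7 and 18.3 CPM in Isl1CKO cells and 40.5 and 67.0 CPM in Control cells. In the other direction stood Cpm, Tgfa and Plscr4. Cpm, the gene of carboxypeptidase M, had 12.2 and 14.8 CPM of H3K27ac in Isl1CKO cells and 50.9 and 21.4 CPM in Control cells. Its H3K27me3 was 139 and 110 CPM in Isl1CKO cells and 99.6 and 11.2 CPM in Control cells. Tgfa, an EGF receptor ligand, had 12.2 and 14.8 CPM of H3K27ac in Isl1CKO cells and 20.8 and 47.1 CPM in Control cells, beside 30.8 and 17.9 CPM of H3K27me3 in Isl1CKO cells and 12.3 and 6.46 CPM in Control cells. For Plscr4, a phospholipid scramblase gene, the values were 4.56 and 12.7 CPM of H3K27ac in Isl1CKO cells and 25.5 and 17.0 CPM in Control cells, and 14.53 and 10.6 CPM of H3K27me3 in Isl1CKO cells and 4.41 and 2.35 CPM in Control cells. edgeR called none of these 6 genes in either mark. DESeq2 called none of them for H3K27ac, nor Cpm for H3K27me3, and gave no adjusted p for H3K27me3 at the other 5, while without Control replicate 1 edgeR called H3K27ac at A4galt and Gas6.

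**Figure D4:**
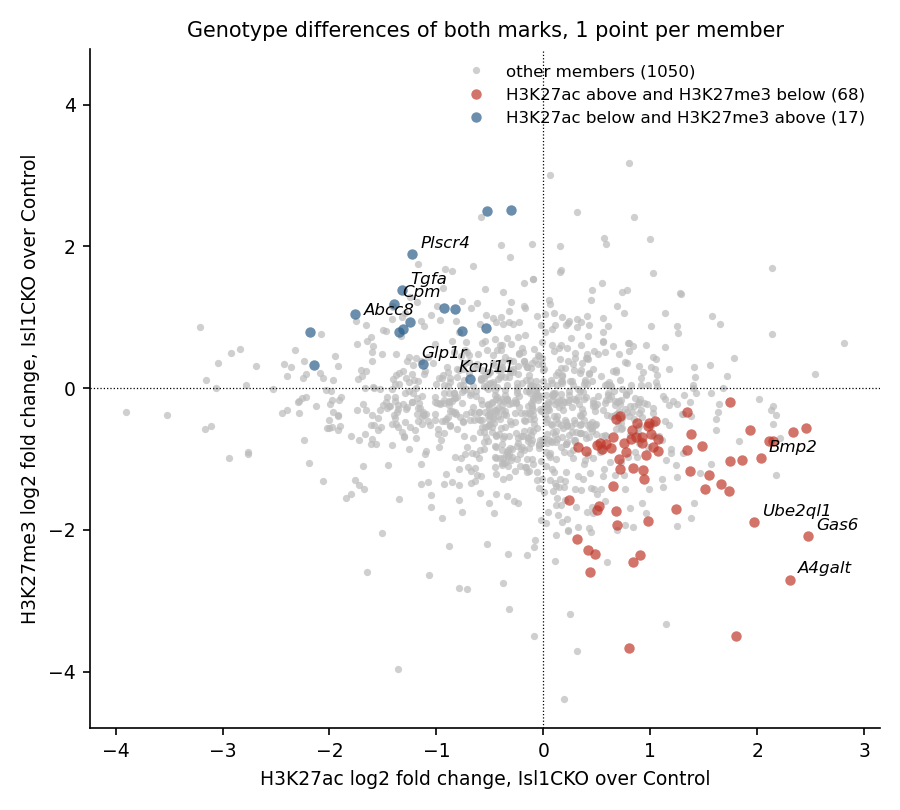
Log2 fold changes of Isl1CKO over Control for H3K27ac (horizontal axis) and H3K27me3 (vertical axis), with 1 point for each of 1135 members; 14 more with 3 or fewer counts in a genotype are not drawn. Red points are the 68 drawn members with H3K27ac above and H3K27me3 below Control without overlap of the libraries, and blue points the 17 with the reverse; gene names mark members described in the text.

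The gene lists differed in how many of their genes were members. The signalling, axon guidance and ion channel lists held the largest shares of members. These were 22 of 111 genes of Wnt, Fgf, Bmp, Hedgehog and Notch signalling, 18 of 85 of axon guidance and cell adhesion, and 19 of 106 ion channel genes. Of their genes with an H3K27ac promoter region, members made up 40.7%, 37.5% and 38.0%, beside 9.61% over all genes. On the same base the share was 27.3% for genes disallowed in beta cells, 20.7% for islet transcription factors, 20% each for hormone secretion and for the cell cycle list, 16.7% for developmental transcription factors (1 of 6), 7.14% for Polycomb and histone methylation enzymes and 2.94% for ribosomal proteins. Among 140 developmental transcription factors only Pitx3 was a member, while 72 had a wide H3K27me3 region and no H3K27ac. Of 42 islet transcription factors 6 were members (Lmx1b, Meis1, Neurog3, Pax6, Pdx1 and Pou3f4). The counts were 9 of 56 for hormone secretion, 6 of 42 for genes disallowed in beta cells, 4 of 28 for cell cycle inhibitors and cyclins, 2 of 39 for Polycomb and histone methylation enzymes, and 1 of 50 for cytosolic ribosomal proteins. No member of any list passed edgeR's test in either mark (background 0%).

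**Figure D5:**
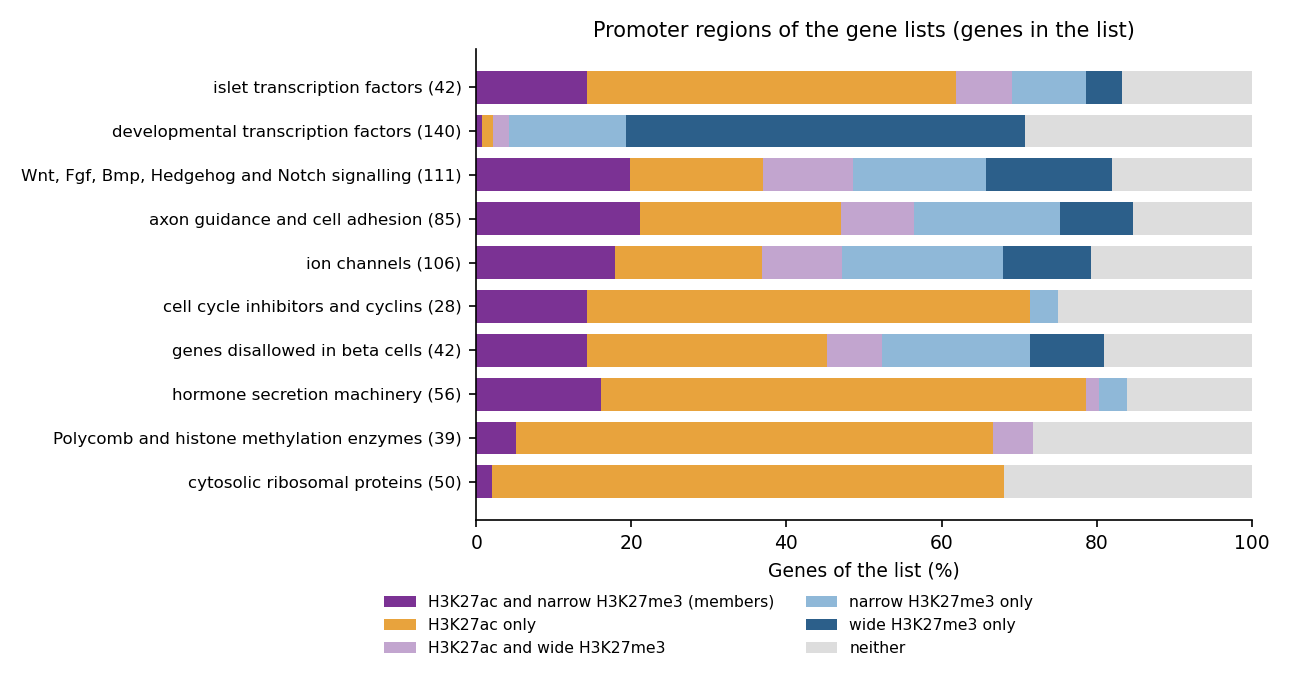
Share of the genes of each list (horizontal axis, percent; list size in brackets) by the regions at their promoters. Members, in purple, are 22 of 111 signalling genes, 18 of 85 axon guidance genes and 19 of 106 ion channels, but 1 of 140 developmental transcription factors, of which 72 carry wide H3K27me3 alone.

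Among the 9 genes of hormone secretion, 8 had a negative log2 fold change of H3K27ac, and at 6 the Isl1CKO libraries lay below Control without overlap, beside 19.4% of all regions and 16.7% of promoter regions (median -0.85; median over all regions -0.03). Without Control replicate 2 the number with a negative value was 7. Over all members tested for H3K27ac, 652 of 1161 had a negative value and 24.8% lay below without overlap. Pcsk1, the prohormone convertase, had 15.2 and 16.9 CPM in Isl1CKO cells and 47.9 and 40.0 CPM in Control cells. Syt9, a calcium sensor of exocytosis, had 10.7 and 8.43 CPM in Isl1CKO cells and 55.6 and 24.7 CPM in Control cells, and Pyy, the gene of the islet and gut hormone peptide YY, had 15.2 and 18.3 CPM in Isl1CKO cells and 74.9 and 23.6 CPM in Control cells. Slc2a2, the gene of the glucose transporter GLUT2, showed a smaller gap, with 36.5 and 29.5 CPM in Isl1CKO cells and 41.7 and 48.2 CPM in Control cells. Rims1, a scaffold of the release site, had 1.52 and 15.5 CPM in Isl1CKO cells and 17.0 and 15.9 CPM in Control cells. Ptprn and Sstr2 overlapped between genotypes. Pcsk1n, the proSAAS inhibitor of Pcsk1, had 15.2 and 21.8 CPM in Isl1CKO cells and 23.9 and 9.87 CPM in Control cells. The H3K27me3 of the list had a median of -0.10 over 8 tested genes, with no gene whose genotypes were separate.

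Of 18 ion channel genes tested for H3K27ac, 11 were negative and 7 positive, with the genotypes apart in 7 and 3 of them (19.4% of all regions lay below and 18.1% above). Over all members tested for H3K27ac, 652 of 1161 were negative, and 24.8% lay below and 17.4% above. Besides Abcc8 and Kcnj11, the lower channel genes included Cacna1g, the T-type calcium channel gene, with 15.2 and 14.8 CPM in Isl1CKO cells and 27.8 and 31.8 CPM in Control cells. Cacna1b, the N-type calcium channel gene, had 35.0 and 40.8 CPM in Isl1CKO cells and 78.0 and 60.3 CPM in Control cells. Higher ones were Kcnq1, a delayed rectifier gene, with 113 and 92.8 CPM in Isl1CKO cells and 45.5 and 70.7 CPM in Control cells, Cacnb3 and Scn8a. For H3K27me3, 13 of 19 channel genes were negative and 7 lay below Control without overlap, beside 16.7% of all regions and 24.2% of promoter regions (median -0.31). Over all members tested for H3K27me3, 794 of 1194 were negative and 28.6% lay below. Scn8a, a voltage-gated sodium channel gene, had 12.4 and 20.0 CPM in Isl1CKO cells and 49.4 and 58.2 CPM in Control cells. Cacna1b had 21.8 and 37.4 CPM of H3K27me3 in Isl1CKO cells and 84.6 and 64.0 CPM in Control cells, and Cacna1g, whose region was among the widest at 4974 bp, 249 and 237 CPM in Isl1CKO cells and 405 and 318 CPM in Control cells. So Cacna1b and Cacna1g were below Control in both marks.

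Of the 22 signalling genes 16 had a negative log2 fold change of H3K27me3, with 9 below Control without overlap and none above (median -0.46). Over all promoter regions 24.2% lay below and 12.7% above, and over all regions 16.7% and 18.7%. Of all members tested 794 of 1194 were negative, with 28.6% below and 7.12% above. Without Control replicate 1 the number of signalling genes with a negative value was 12. Among receptors, Fzd1, a Wnt receptor, had 31.2 and 28.5 CPM in Isl1CKO cells and 93.4 and 81.1 CPM in Control cells. Among secreted inhibitors, Nog, the BMP antagonist noggin, had 105 and 138 CPM in Isl1CKO cells and 199 and 226 CPM in Control cells. Frzb, a secreted Wnt antagonist, overlapped between genotypes with 129 and 97.3 CPM in Isl1CKO cells and 113 and 104 CPM in Control cells. Fgf11, a fibroblast growth factor homologue that stays in the cell, had 0.427 and 13.2 CPM in Isl1CKO cells and 40.5 and 19.4 CPM in Control cells. Id3, a target of BMP signalling, had 8.12 and 1.28 CPM in Isl1CKO cells and 10.6 and 26.4 CPM in Control cells. Fgfr3, a fibroblast growth factor receptor, overlapped between genotypes in both marks. H3K27ac of the signalling genes was even: 10 of 20 tested were positive and 10 negative (median 0.01).

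In axon guidance and cell adhesion, 13 of 17 tested genes had a negative log2 fold change of H3K27me3, 6 were below Control without overlap and 1 was above (median -0.29). The shares over all promoter regions were 24.2% below and 12.7% above, those over all regions 16.7% and 18.7%, and 28.6% of all members tested lay below. Of all members tested 794 of 1194 were negative. Without Control replicate 1 the number of genes of this list with a negative value was 9. Plxnd1, a semaphorin receptor gene, had 296 and 223 CPM in Isl1CKO cells and 449 and 375 CPM in Control cells. Efna5, an ephrin ligand gene, had 40.6 and 54.8 CPM in Isl1CKO cells and 108 and 126 CPM in Control cells, and Plxna1, another plexin gene, had 10.3 and 8.08 CPM in Isl1CKO cells and 44.1 and 27.6 CPM in Control cells. The 1 gene above was Sema6c. Sema3f, which with Plxnd1 had the most of both marks in this list, overlapped between genotypes in both. H3K27ac of Cdh2, the gene of N-cadherin, was 104 and 109 CPM in Isl1CKO cells and 75.6 and 61.4 CPM in Control cells. Over the 18 genes the H3K27ac median was 0.01.

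The islet transcription factors had median log2 fold changes near 0 over the 6 genes, -0.03 for H3K27ac and 0.10 for H3K27me3. Pax6, a master factor of endocrine cells, had the widest H3K27ac region of all members (6901 bp), with 224 and 216 CPM in Isl1CKO cells and 243 and 228 CPM in Control cells. Its H3K27me3 region was 373 bp wide and held 0 and 24.7 CPM in Isl1CKO cells and 6.17 and 2.35 CPM in Control cells, so its membership rests mostly on 1 library. Pdx1 had 120 and 56.9 CPM of H3K27ac in Isl1CKO cells and 87.2 and 88.8 CPM in Control cells, with 30.3 and 68.9 CPM of H3K27me3 in Isl1CKO cells and 52.9 and 25.9 CPM in Control cells. Lmx1b, a LIM-homeodomain gene like Isl1, had 60.9 and 59.7 CPM of H3K27ac in Isl1CKO cells and 40.9 and 21.4 CPM in Control cells. Its H3K27me3 was 9.40 and 11.5 CPM in Isl1CKO cells and 20.3 and 20.0 CPM in Control cells, so it was among the members with opposite shifts. Neurog3, the factor of endocrine progenitors, overlapped in both marks. Pitx3 had 9.13 and 7.03 CPM of H3K27ac in Isl1CKO cells and 17.0 and 18.1 CPM in Control cells, beside 205 and 144 CPM of H3K27me3 in Isl1CKO cells and 234 and 217 CPM in Control cells.

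In the shorter lists, Rest, the repressor of neuronal genes that beta cells are known to keep silent, had 7.61 and 6.33 CPM of H3K27ac in Isl1CKO cells and 39.4 and 16.4 CPM in Control cells. Over the 6 disallowed genes 4 were negative for H3K27ac (median -0.94) and 5 for H3K27me3 (median -0.24), and Lmo4 and Igfbp4 were positive for H3K27ac. Ccnd1, the gene of cyclin D1, had 28.9 and 30.2 CPM of H3K27ac in Isl1CKO cells and 36.3 and 38.9 CPM in Control cells, and Cdk6, its kinase partner, 15.2 and 34.4 CPM in Isl1CKO cells and 36.3 and 42.8 CPM in Control cells. The 4 cell cycle genes had an H3K27ac median of -0.17 and an H3K27me3 median of -0.17. Of the enzymes, Cbx2, a Polycomb reader, had 19.8 and 28.1 CPM of H3K27ac in Isl1CKO cells and 11.6 and 15.9 CPM in Control cells, and Tet3, which oxidises methylcytosine, overlapped between genotypes. Rpl38 was the one ribosomal member, with 66.9 and 59.0 CPM of H3K27ac in Isl1CKO cells and 80.3 and 38.9 CPM in Control cells. Its H3K27me3 region did not overlap the H3K27ac region and held 11.5 CPM or less in each library.

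ISL1 values above 0 were somewhat more frequent among members than among promoters with H3K27ac alone, a difference that was not tested. The deposited ISL1 file gives a whole number, in a unit that is not stated, for a promoter window of usually 6000 bp (up to 70388 bp), and 958 members had one. The value was at least 1 at 65.1% of these at E14.5 (95% exact binomial interval 62 to 68.2%), against 61.1% of promoters with H3K27ac alone and 37.7% of all 22332 windows. At P9 it was at least 1 at 15.97% of the members (153 genes, interval 13.7 to 18.4%), against 9.95% of promoters with H3K27ac alone and 8.86% of all windows. Narrow H3K27me3 promoters without H3K27ac had 41.0% at E14.5 and 13.2% at P9, so at P9 they were near the members. Promoters with wide H3K27me3 went further: 77.1% at E14.5 and 33.7% at P9 where H3K27ac was also present. Where it was not, the shares were 76.6% and 29.0%. At 106 members (11.1%) both stages had a value of at least 1. With 1 library at P9 and 1 joint column at E14.5, these shares have no replicate error.

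The highest P9 values were 8 at Osmr, the oncostatin M receptor gene, 6 at Mlph, the gene of the Rab27 effector melanophilin, and 4 at Sfrp5, a secreted Wnt inhibitor. Osmr had 1.52 and 0.703 CPM of H3K27ac in Isl1CKO cells and 0.772 and 36.7 CPM in Control cells, so nearly all of its H3K27ac lay in Control replicate 2. Mlph had 1.52 and 2.81 CPM in Isl1CKO cells and 6.95 and 19.7 CPM in Control cells. Sfrp5 had 68.5 and 97.0 CPM in Isl1CKO cells and 67.2 and 25.2 CPM in Control cells, with 22.7 and 12.3 CPM of H3K27me3 in Isl1CKO cells and 29.1 and 27.6 CPM in Control cells. Osmr and Mlph had too few H3K27ac counts to be tested. For H3K27me3 the genotypes were separate with Isl1CKO below at 28.5% of 151 members with ISL1 at P9 and at 28.1% of 795 without. The background was 16.7% of all regions and 24.2% of promoter regions. For H3K27ac 27 of 150 members with ISL1 were below (18%) and 33 above (22%). Of the 774 without, 26.2% were below and 17.4% above. Over all H3K27ac regions 19.4% lay below and 18.1% above, and over promoter regions 16.7% and 20.3%. The differences between these groups were not tested.

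The width limit runs through a continuous range. Hmga2, a chromatin architectural gene, and Olfm2 lay just inside it with H3K27me3 regions of 4998 bp. Hmga2 had 122 and 207 CPM of H3K27me3 in Isl1CKO cells and 169 and 86.4 CPM in Control cells, and Olfm2 had 92.3 and 156.8 CPM in Isl1CKO cells and 122 and 87.5 CPM in Control cells. Mast4 and Gm20554 lay just outside at 5018 bp and 5023 bp. Mast4 had 71.4 and 65.9 CPM of H3K27me3 in Isl1CKO cells and 116 and 86.4 CPM in Control cells, and Gm20554 had 119 and 142 CPM in Isl1CKO cells and 98.7 and 126 CPM in Control cells. The levels of the 4 genes overlapped.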

How the data were processed

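CUT&Tag for H3K27ac and H3K27me3 (8 libraries, 2 per genotype and mark) and for ISL1 was analysed. The authors deposited raw counts per region and library, with log2 fold changes and adjusted p-values of their own, and ISL1 values treated here as a score because the deposited file states no unit. The submitters' processing notes name Bowtie2 2.3.5.1, Picard 2.27.4, MACS2 2.2.6, ChIPseeker 1.38.0, edgeR 4.0.16 and GRCm39. Groups came from the sample labels. The chromosome numbers deposited with the histone regions followed alphabetical order (7.48% and 9.25% matched the ISL1 file's genes as written, 100% after relabelling).

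After dropping 108 and 90 repeated regions, edgeR 4.0.16 (R 4.3.3) was run on all regions kept by filterByExpr, with TMM scaling, a quasi-likelihood test and Benjamini-Hochberg adjustment. DESeq2 1.42.0, other scalings, no filter, a replicate block, other width limits and leaving out each library were alternatives. CPM were computed from these counts with TMM-scaled library sizes. Members, lists and the rule for named genes (smallest p without overlap, most of both marks, opposite shifts, list leaders, width limit, highest ISL1) were chosen with earlier results of these data known.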

Additional observations from a re-analysis of the deposited data

How the results depend on the processing

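In edgeR no member was called under either other size scaling, the loess offset, no filter or the replicate block. DESeq2 called 1 (H3K27ac) and 19 (H3K27me3). Leaving out a library gave 0 to 94 called members for H3K27ac (94 without Control replicate 1, where 6.96% of all regions were called, and 2 without Control replicate 2) and 0 to 2 for H3K27me3. With 1 library of a genotype, the lone sample is assumed to vary like the other genotype. Median log2 fold changes ranged from -0.24 to -0.032 (H3K27ac) and from -0.44 to -0.049 (H3K27me3), and kept their sign in each. Members without overlap numbered 325 to 390 above and 423 to 521 below for H3K27ac, and 150 to 417 and 487 to 689 for H3K27me3, as fewer libraries overlap less often. Level ratios without a library were 0.653 to 0.748 (H3K27ac), 0.313 to 0.348 (against wide) and 0.890 to 1.01 (against narrow), and per region instead of per kb 0.516, 0.0855 and 1.18, as widths differ. ISL1 values of at least 5 were found at 4.18% of members at E14.5 and 0.209% at P9.

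Of 41 fold changes of named members, 7 changed sign without 1 library. Over the libraries left out, H3K27ac of Kdelr1 ran from -0.29 to 0.14 (0.090 without Isl1CKO replicate 1) and of Nxph1 from -0.15 to 1.11. H3K27me3 of Egr4 ran from -0.70 to 0.065, of Kdelr1 from -0.64 to 0.15, of Nxph1 from -0.39 to 0.061, of Glp1r from -0.18 to 1.06 and of Kcnj11 from -0.88 to 5.51 (-0.33 without Isl1CKO replicate 2). The other 401 of 410 values kept their direction. The cause was not tested.

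The replicate block called 0 members in both marks, with medians of -0.12 (H3K27ac) and -0.26 (H3K27me3). Same-numbered libraries did not deviate together (correlations 0.05 and -0.01), so the numbers were not taken to pair samples. Counts without overlap have no value under the block or DESeq2. The alternatives for gene lists and for the overlap split were chosen after seeing the data. Depth limits single promoters: 3 counts equal 1.28 to 4.56 CPM by library, and intervals cover counting error only.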

Other observations

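Members that all but lacked a mark in 1 library were unevenly spread over the libraries. H3K27me3 was under 3 CPM in Control replicate 2 and above 10 CPM in each of the other 3 libraries at 33 members. These included Abcc8, Kcnj11, Hcn4 (the pacemaker channel gene), Id2 (an inhibitor of helix-loop-helix factors) and Lefty1 (a Nodal antagonist). The same held in Isl1CKO replicate 1 at 20 members, among them Cebpa and Fgf11, in Isl1CKO replicate 2 at 14, among them Slc2a2 and Atoh7, and in Control replicate 1 at 0. For H3K27ac it held in Isl1CKO replicate 1 at 8 members, in Isl1CKO replicate 2 at 13, in Control replicate 1 at 5 and in Control replicate 2 at 27. How many of all regions met these limits was not counted. Control replicate 2 had 0 counts of H3K27me3 at 46 of 1208 members and at 1145 of all 20086 regions, more than any other library. For H3K27ac it had 0 counts at 4 members and 199 of all 31479 regions, fewer than any other library. The genes named here were chosen after their values were seen.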
